A study of Homo sapiens with 12 samples.

Results

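Genes whose response to TWEAK differed between SKBR3 and MDA-MB-453 were sought among all genes of the joined count tables. SKBR3 and MDA-MB-453 are established HER2 breast cancer cell lines. TWEAK is a secreted ligand of the tumour necrosis factor (TNF) superfamily and Fn14, encoded by TNFRSF12A, is its receptor. Each line was profiled by poly-A RNA-seq as 3 untreated (UT) and 3 TWEAK-treated biological replicates, which makes 4 groups and 12 libraries. Cells of the treated groups were starved in Opti-MEM for 8 h and then received recombinant human TWEAK at 10 ng/ml for 48 h, with a second addition after 24 h. The labels give the same protocol for the untreated groups, so how these were handled is not known. The contrast was the difference between the log2 changes with TWEAK of the lines, taken as MDA-MB-453 minus SKBR3, so that a negative value marks a smaller or more negative change in MDA-MB-453. The line-by-treatment interaction term was tested with edgeR's quasi-likelihood test and Benjamini-Hochberg adjustment, and genes with an adjusted p of at most 0.1 were called. Of 62696 genes, 17201 had enough counts to be tested. Each line is 1 cell line of its kind, so a difference between the lines is a difference between these cultures and not between kinds of tumour.

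Binding of TWEAK to Fn14 recruits TNF receptor-associated factors (TRAFs) and releases the non-canonical NF-κB subunits p52 and RelB as well as the canonical subunits p50 and p65. NF-κB in epithelial cells drives genes of inflammation, antigen presentation and survival, together with inhibitors that feed back on the pathway. Interferon-stimulated genes, in contrast, are controlled by STAT2 and interferon regulatory factors.

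The libraries held between 24773003 and 35208304 counts. ERBB2, KRT8, KRT18, EPCAM and FOXA1, which mark HER2 luminal epithelium, were detected in all 12 libraries, but CDH1 was nearly absent from SKBR3, with 1 to 7 counts per library. Of the 16 markers of other cell types, 8 could be tested, 3 of them in both lines, and the interaction was called for 1, TP63. KRT5 ranged from 5 to 99 and CDH5 from 38 to 121 counts over the SKBR3 libraries. The summed level of these markers was 25.5 to 28.1 CPM (counts scaled to a common library size) in untreated and 31.2 to 32.4 in TWEAK-treated SKBR3, and 120 to 126 and 110 to 117 in MDA-MB-453, most of it from COL1A1. PTPRC, CD3E, PECAM1 and DCN had at most 5 counts in any library. In each line, TWEAK replicate 2 differed most from its group. Against the other TWEAK replicates it gave a chi-square, divided by its degrees of freedom, of 21.1 and 23.8 for SKBR3 and of 10.2 and 5.31 for MDA-MB-453, while other pairs of replicates lay between 1.78 and 5.74. Cytosolic ribosomal protein genes took 6.74% of its counts in SKBR3, against 5.25% to 5.67% in the other SKBR3 libraries. The part of these features in the results was not tested. Main counts and classes are also given without it where they differ most.

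TWEAK changed more genes in SKBR3 than in MDA-MB-453, and with all 12 libraries most of the differing genes were called in SKBR3 alone. The interaction was called for 579 of 17201 genes, or 3.37%, and 1913 genes had an unadjusted p under 0.05. The change was lower in MDA-MB-453 for 406 genes (2.36%) and higher for 173 (1.01%). Fitted on its own 6 libraries, SKBR3 had 10.4% of its tested genes called and MDA-MB-453 had 1.49%. Replicates varied by 7.4% (biological coefficient of variation) in SKBR3 and by 3.95% in MDA-MB-453, and the part of this spread in the calls was not tested. Of the 579 genes, 459 were called in SKBR3 and not in MDA-MB-453, and 440 of these could be tested in both lines. In 305 of the 440, the 95% interval of the MDA-MB-453 change lay within 1.2-fold of no change. The reverse pattern, called in MDA-MB-453 and not in SKBR3, was held by 14 genes. Another 53 genes moved in the same direction in both lines with unequal size, of which 46 moved further in SKBR3 and 7 further in MDA-MB-453. Opposite directions were called for 7 genes, and 46 genes were called in neither line alone, 15 of them because a line had too few counts.

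These counts depended on single libraries and on the processing. Without SKBR3 TWEAK replicate 2, 1150 genes were called, of which 941 responded in SKBR3 only. Without replicate 2 of the TWEAK groups of both lines, 2077 genes were called, among them 570 of the 579. The SKBR3-only genes then numbered 995, which is no longer most of those called, and the genes that responded in MDA-MB-453 only numbered 528 and those with opposite directions 159. Without SKBR3 untreated replicate 2 the SKBR3-only genes numbered 303, and with the replicate number as a block 292. A correction for GC content and transcript length, chosen after seeing the data, gave 1130 called genes, 905 of them in SKBR3 only. No gene called in both the main and an alternative analysis changed direction. Alternatives number up to 21 for the interaction and 22 for the class, which also depends on the calls within each line.

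**Figure D1:**
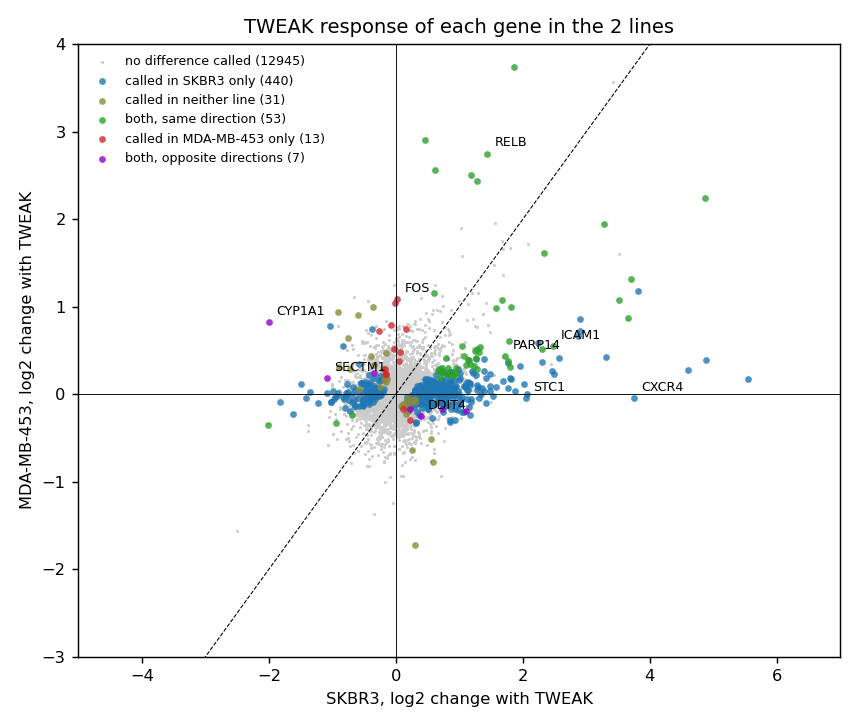
Log2 change with TWEAK in SKBR3 (x axis) and MDA-MB-453 (y axis) for 13489 genes tested in both lines, coloured by how the response differed; the dashed line marks equal changes and 4 genes with no called difference lie outside the axes. The 440 genes called in SKBR3 only spread along the x axis, and the 7 genes with opposite directions lie in the upper left and lower right.

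Among genes with a mean of at least 1 CPM over the 6 libraries of each line, the largest SKBR3-only increases were those of VASH2, IL27RA, CXCR4, TRAF1, STC1 and MMP13. That mean includes the treated libraries, and some of these genes, such as VASH2, IL27RA and CXCR4, reached it in SKBR3 only through them. The sizes of such increases rest on few untreated counts and are uncertain. VASH2 (ENSG00000143494; chromosome 1, 212950520 to 212992037 of hg38) encodes vasohibin-2, a tubulin carboxypeptidase. Its level was 0.431, 0.414 and 0.454 CPM in untreated and 22.5, 16.6 and 22.7 CPM in TWEAK-treated SKBR3, against 11.3, 13.4 and 12.7 CPM and 14.3, 15.9 and 12.4 CPM in MDA-MB-453. The groups were far apart in SKBR3 and overlapped in MDA-MB-453. The interaction was -5.38 (standard error 0.255, adjusted p = 2e-09 from edgeR). IL27RA (ENSG00000104998), the receptor chain for interleukin-27, was at 0.626 ± 0.18 CPM untreated and 18.4 ± 1.03 CPM treated in SKBR3 (SD, n = 3), beside 2.66 ± 0.272 and 3.46 ± 0.253 CPM for MDA-MB-453, with an interaction of -4.50. Without MDA-MB-453 TWEAK replicate 2, alone or with that of SKBR3, IL27RA also passed in MDA-MB-453 and moved to the same-direction class. CXCR4, the receptor for the chemokine CXCL12, was at 1 to 5 counts in the untreated SKBR3 libraries and at 22 to 71 counts after TWEAK. In MDA-MB-453 it stayed between 24.1 and 27.3 CPM in all 6 libraries (log2 change -0.04, 95% interval -0.16 to 0.08). STC1, which encodes the secreted glycoprotein stanniocalcin-1, had a similar arrangement, rising by 2.04 on the log2 scale in SKBR3 from at most 1.04 CPM, while MDA-MB-453 held 69.8 to 84.4 CPM with or without TWEAK. For VASH2, CXCR4 and STC1 the untreated level was thus higher in the line that did not respond. This did not hold across the class, since untreated MDA-MB-453 exceeded untreated SKBR3 in 161 of 318 SKBR3-only increases (50.6%) and in 51.4% of all 13489 genes tested in both lines.

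Of the SKBR3-only genes, 19 were too low in MDA-MB-453 to be tested there. HYAL4, a hyaluronidase family gene, had 0 counts in each untreated SKBR3 library and 52 to 86 after TWEAK, and at most 2 in any MDA-MB-453 library. LAPTM5, which encodes a lysosomal membrane protein of leukocytes, rose from 1, 4 and 0 to 128, 190 and 163 counts in SKBR3 and had 1 to 6 counts in MDA-MB-453. The call for LAPTM5 held in all 20 alternatives in which it was tested, whereas that of HYAL4 was lost in 8 of 20. Genes on the opposite strand cover 19.3% of the exonic bases of LAPTM5. BMAL2, a paralogue of the clock gene BMAL1, rose by 3.43 on the log2 scale in SKBR3. SDC2, which encodes syndecan-2, was called for the interaction but in neither line alone, and was too low in SKBR3 to be tested there. It had 1, 0 and 0 counts there without TWEAK and 8, 14 and 7 with it, and 14.4 to 16.5 CPM in all MDA-MB-453 libraries.

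SKBR3-only decreases numbered 125, led among genes with a mean of at least 1 CPM in each line by COL5A2, MT2A, GPRC5A, CBLN2, ARG2 and TFF3. COL5A2, a chain of type V collagen, had 44.9, 49.8 and 40.9 CPM in untreated and 16.2, 14.9 and 17.4 CPM in treated SKBR3, while MDA-MB-453 had 2.31 to 3.27 CPM in all libraries and overlapping groups (interaction 1.60, standard error 0.182, adjusted p = 5.16e-05). MT2A, a metallothionein that binds zinc and copper, had 282 ± 26.5 CPM before and 91.8 ± 13.2 CPM after TWEAK in SKBR3, and the levels of MDA-MB-453 were 111 ± 2.46 and 95.2 ± 9.86 CPM, with an interaction of 1.40. MT2A was in the same-direction class in 7 of 22 alternatives, among them those without MDA-MB-453 TWEAK replicate 1 or 2. GPRC5A, a retinoic acid-induced receptor, fell by 1.41 on the log2 scale in SKBR3 and had a log2 change of -0.05 in MDA-MB-453 (95% interval -0.14 to 0.05). The call for CBLN2 was lost in 12 of 21 alternatives and that of TFF3 in 7. Genes on the opposite strand, mainly VTI1B, cover 39.6% of the exonic bases of ARG2.

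Functions were then compared by hand-written gene lists, which are described by counts beside the 3.37% called over all genes. With all 12 libraries, the list of the IL-6 family and JAK-STAT3 had the largest share, with 8 of 21 tested members called (38.1%). Over 18 members tested in both lines the median log2 changes were 0.16 (SKBR3) and 0.01 (MDA-MB-453), and the median interaction was -0.07. SOCS3, PIM1 and JAK2 passed in neither line, and their interactions of -0.06, 0.17 and -0.13 were not called. STAT3, the transcription factor of this pathway, had 497, 487 and 496 CPM in untreated and 695, 659 and 713 CPM in treated SKBR3, and between 70.4 and 73.6 CPM in all 6 MDA-MB-453 libraries. The groups did not overlap in SKBR3 and overlapped in MDA-MB-453 (interaction -0.47, standard error 0.063, adjusted p = 0.000259). The kinases JAK1 and TYK2, the receptor chain IL6R and the inhibitor SOCS1 also rose in SKBR3 only, with interactions between -0.92 and -0.29, and the inhibitors CISH and SOCS2 fell in SKBR3 only, with interactions of 0.43 and 0.92. The call was lost without MDA-MB-453 untreated replicate 1 for IL6R (adjusted p = 0.106), in 3 alternatives for SOCS1 and in 10 for TYK2. IL6ST, which encodes gp130, the signal-transducing chain shared by receptors of this family, was the exception. It rose in both lines, and further in MDA-MB-453, where it had 1.88 ± 0.166 CPM untreated and 10.7 ± 0.404 CPM treated, against 62.8 ± 5.34 and 143 ± 32.7 CPM in SKBR3 (interaction 1.31, adjusted p = 0.00526). SKBR3 TWEAK replicate 2 was the lowest of its group for IL6ST with 106 CPM, beside 162 CPM in the other replicates. The interaction of IL6ST stayed between 1.11 and 1.41 over all alternatives.

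Some genes that attach cells to the matrix rose in SKBR3 only. In the list of integrins and laminins, 6 of 25 tested members were called (24%), all as SKBR3-only increases. The laminin chain LAMB3, which was not called, rose in both lines with an interaction of -0.05 (standard error 0.255), and the integrin chain ITGAM also passed in both. Over 19 members tested in both lines the median log2 changes were 0.17 (SKBR3) and 0.00 (MDA-MB-453). The laminin chain LAMC1 was at 1.23 ± 0.109 CPM untreated and 4.23 ± 0.703 CPM treated in SKBR3, against 8.59 ± 0.692 and 9.01 ± 0.413 CPM for MDA-MB-453. The fibronectin receptor chain ITGA5 was at 16.4 ± 1.34 and 36.5 ± 0.411 CPM in the former and 3.34 ± 0.18 and 2.97 ± 0.692 CPM in the latter. The interactions were -1.70 for LAMC1 and -1.30 for ITGA5, and both held in all alternatives. The calls of ITGA3, ITGAV and ITGB4, with interactions of -0.36, -0.61 and -0.33, were each lost without MDA-MB-453 TWEAK replicate 3, with adjusted p values of 0.101, 0.124 and 0.129. The calls of ITGAV and ITGB4 were lost in 7 and 6 alternatives in all. Over the alternatives, 2 to 9 members had a called lower change in MDA-MB-453, with 2 in the fit without that library. Matrix proteases and their inhibitors had 4 of 33 members called, again all SKBR3-only increases, namely the collagenase MMP13, the inhibitors TIMP1 and TIMP3 and the cathepsin inhibitor CSTB, and the call of TIMP3 was lost in 14 of 20 alternatives, and TIMP1 was in the same-direction class in 4 of 22, among them that without MDA-MB-453 TWEAK replicate 2. Collagens were mixed, since COL5A1 and COL27A1 rose in SKBR3 and were near the detection limit in MDA-MB-453, COL5A2 fell in SKBR3, and COL16A1 rose in both lines, by 2.33 on the log2 scale in SKBR3 and by 1.61 in MDA-MB-453. The call of COL5A1 was lost without MDA-MB-453 untreated replicate 1 (adjusted p = 0.172), and that of COL27A1 without untreated replicate 1 (0.419) or 2 (0.2) of that line and with limma voom (0.357).

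**Figure D2:**
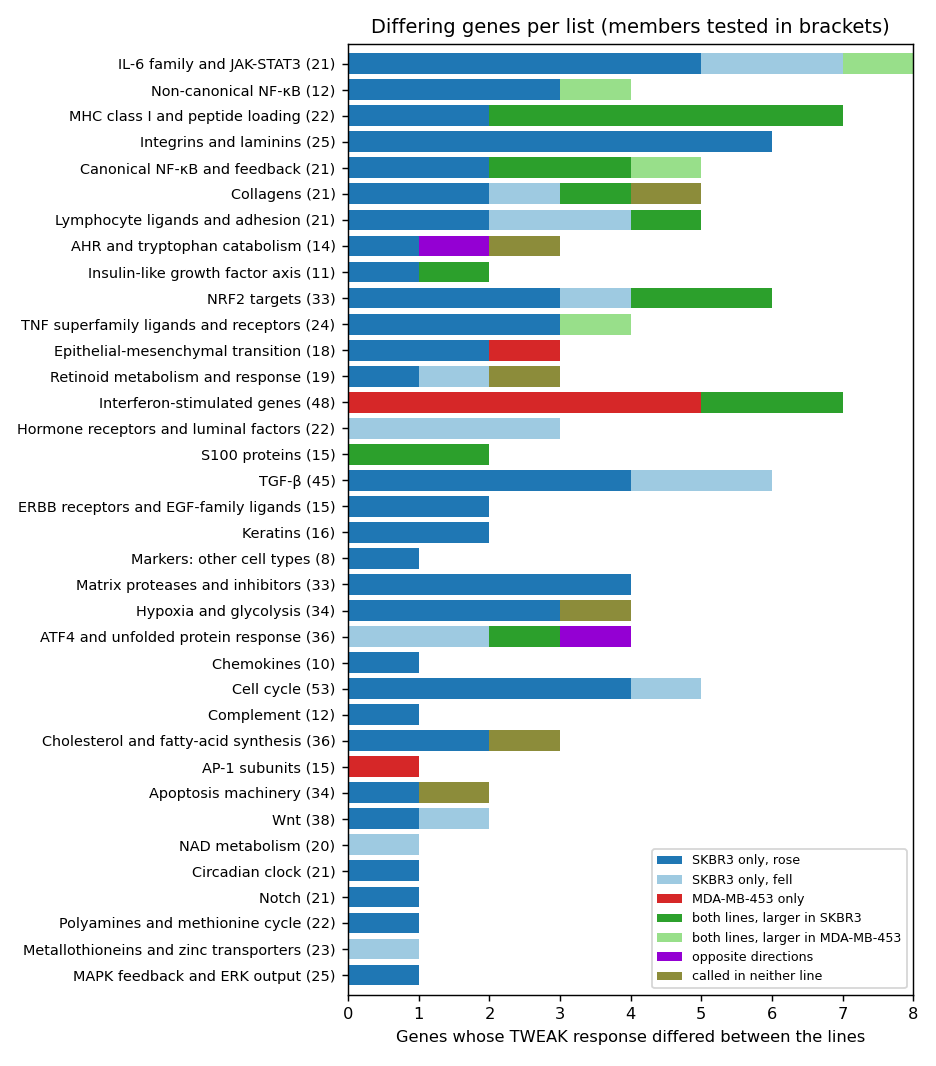
Number of genes with a called difference between the lines in each hand-written list (x axis), split by the class of the difference, for lists with at least 1 such gene; the number of tested members stands in brackets and lists are ordered by the share called. Blue (SKBR3 only) takes most of the bar in most lists, with exceptions such as class I presentation (2 of 7) and canonical NF-κB (2 of 5), and the bars of interferon-stimulated genes and AP-1 subunits are mostly or wholly red (MDA-MB-453 only).

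The cell cycle list had 5 of 53 members called, all in SKBR3 only with 12 libraries. Without replicate 2 of both TWEAK groups 7 had a called lower and 11 a higher change in MDA-MB-453, of which 14 were SKBR3 only and 2 MDA-MB-453 only. With 12 libraries the inhibitors of cyclin-dependent kinases CDKN2B and CDKN1A rose in SKBR3, as did the mitotic gene CDC20, and the D-type cyclin CCND3 fell. CDKN2B went from 12.7, 12.3 and 13.3 to 37, 31.2 and 34.7 CPM in SKBR3 and had 3.1 to 4.26 CPM in MDA-MB-453 without a shift (interaction -1.52, adjusted p = 2.95e-05). CDKN1A rose from 14.9 ± 1.01 to 27.1 ± 2.79 CPM in SKBR3, whereas its log2 change in MDA-MB-453 was -0.30 and did not pass (adjusted p = 0.152). Its interaction was -1.16 (standard error 0.129). In 5 of 22 alternatives, among them that without MDA-MB-453 TWEAK replicate 2 and the replicate block, the decrease in MDA-MB-453 passed and CDKN1A was in the class of opposite directions. CDC20 lost its call in 4 alternatives. In the list of hormone receptors and luminal factors 3 of 22 members were called (13.6%), and with 12 libraries all 3 fell in SKBR3 only. Without replicate 2 of both TWEAK groups 2 members had a called lower and 6 a higher change in MDA-MB-453. The activating protein 2 factor TFAP2B fell by 0.74, the secreted trefoil peptide TFF3 by 0.99 and the transcription factor XBP1 by 0.34 on the log2 scale, beside changes of -0.06, 0.04 and 0.07 in MDA-MB-453. Without MDA-MB-453 TWEAK replicate 2, TFAP2B moved to the same-direction class. In the TGF-β list 6 of 45 members were called, all in SKBR3 only, whereas without replicate 2 of both TWEAK groups 9 had a called lower and 6 a higher change in MDA-MB-453, and 2 were MDA-MB-453 only. With 12 libraries, the BMP target ID3 and the TGF-β feedback gene PMEPA1 rose by 0.61 and 0.52 in SKBR3 and the receptor TGFBR1 fell by 0.46. ODC1, the rate-limiting enzyme of polyamine synthesis, rose by 1.42 in SKBR3 from about 194 CPM, and by 0.19 without passing the test in MDA-MB-453 (interaction -1.24). ODC1 passed in both lines in 6 of 22 alternatives, among them DESeq2 and the fit without MDA-MB-453 TWEAK replicate 2.

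Several genes of class I antigen presentation rose in both lines and further in SKBR3. Of 22 tested members of the list, 7 were called (31.8%), all with a smaller change in MDA-MB-453, and 5 of these rose in both lines. Over 21 members tested in both lines, 16 passed for SKBR3 and 14 for MDA-MB-453, and the median log2 change was 0.84 and 0.49. TAP1 (ENSG00000168394; chromosome 6, 32845209 to 32853816), a subunit of the peptide transporter of the endoplasmic reticulum, started from equal levels. It had 23, 24.2 and 23.6 CPM in untreated and 78.8, 85.2 and 80.5 CPM in treated SKBR3, and 23, 22.5 and 23.8 CPM and 36.1, 35.3 and 34.2 CPM in MDA-MB-453. Treated and untreated replicates did not overlap in either line, and every treated SKBR3 replicate lay above every treated MDA-MB-453 replicate (interaction -1.18, standard error 0.078, adjusted p = 8.89e-08). The immunoproteasome subunits PSMB9 and PSMB8 had interactions of -2.39 and -0.83 and the peptide-trimming enzyme ERAP1 one of -0.91. The tapasin gene TAPBP and its homologue TAPBPL rose in SKBR3 and did not pass in MDA-MB-453, but TAPBP passed in both lines in 5 of 22 alternatives, among them those without MDA-MB-453 untreated replicate 3 or TWEAK replicate 2, and the call of TAPBPL was lost in 9. Other members were not called. B2M rose by 0.54 in the former line and 0.53 in the latter, and HLA-B by 1.67 and 1.74, with interactions of -0.02 and 0.07, and neither was called. The transporter subunit TAP2 and the regulator NLRC5, each of which passed in only 1 line, had interactions of -0.11 and -0.05, which were not called either. HLA-C was called, with an increase of 1.28 in SKBR3 and 0.29 in MDA-MB-453 (standard error of the difference 0.224, adjusted p = 0.0207), but not without SKBR3 untreated replicate 1 (adjusted p = 0.125) or with limma voom (0.239). Without MDA-MB-453 untreated replicate 2, PSMB8 and HLA-C passed in SKBR3 only, as did PSMB8 without MDA-MB-453 TWEAK replicate 3. HLA-C had at most 1.82 CPM in SKBR3 and 214 to 292 CPM in MDA-MB-453. HLA genes are polymorphic and nearly identical to one another, so how their reads were assigned could differ between the lines and their levels are uncertain. PSMB8 and PSMB9 overlap on opposite strands, and opposite-strand genes cover 14.2% of the exonic bases of TAP1 and 21% of those of TAPBP.

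RefSeq promoter windows, from 250 bases before to 50 bases after each annotated start, were available for 11576 of the tested genes. The κB consensus was found on either strand in the windows of 5 of the 7 called class I genes and 4 of 11 that were not called (36.4%), of 18 of 46 genes that moved in the same direction in both lines (39.1%), of 57 of 265 genes that rose in SKBR3 only (21.5%), of 20 of 96 that fell in SKBR3 only (20.8%) and of 17% of all windows. A match is a description of the letters and not a binding site. A gene with several annotated starts was counted if any of its windows held the match, as was the case for TAPBPL. Stretches of the other 4 called class I genes with a match are shown because it lies upstream of a start in the RefSeq table, which for TAP1 is within the GENCODE gene bounds given above; capitals mark the match, and coordinates are of GRCh38.p14, on the minus strand.
TAP1 (chr6:32853743-32853800): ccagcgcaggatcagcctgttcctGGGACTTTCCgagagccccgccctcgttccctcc
HLA-C (chr6:31272231-31272288): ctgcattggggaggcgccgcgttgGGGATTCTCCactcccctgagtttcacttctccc
TAPBP (chr6:33314101-33314158): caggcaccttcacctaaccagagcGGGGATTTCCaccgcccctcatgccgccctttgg
ERAP1 (chr5:96807985-96808042): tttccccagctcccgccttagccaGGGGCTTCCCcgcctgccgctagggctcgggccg

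The NF-κB genes themselves divided. NFKB2 and BIRC3, which encode the p52 precursor and a TRAF-binding inhibitor of apoptosis, rose strongly in both lines, and their interactions of -0.12 and 0.15 were not called (adjusted p = 0.701 and 0.905, and up to 1 over the alternatives). RELB rose further in MDA-MB-453, from 1.3, 1.2 and 1.29 to 8.01, 9.59 and 8.02 CPM, against 16.1, 15.7 and 19.4 to 43.4, 54.1 and 41.7 CPM in SKBR3. The replicates were apart in both lines, and the treated level of MDA-MB-453 remained below the untreated level of SKBR3 (interaction 1.30, standard error 0.214, adjusted p = 0.00158). TNFAIP3, which encodes the deubiquitinase A20, and TNFSF15, a ligand of the TNF superfamily, also rose further in MDA-MB-453, from at most 0.656 and 0.184 CPM, with interactions of 1.15 and 1.87. The call of TNFAIP3 was lost without MDA-MB-453 untreated replicate 3 (adjusted p = 0.135), and that of TNFSF15 without SKBR3 untreated replicate 2 (0.144) or MDA-MB-453 untreated replicate 1 (0.12) or 2 (0.165). In the other direction, TRAF1 and TRAF2, adaptors of TNF receptors, the canonical precursor NFKB1 and the kinase IKBKE rose in SKBR3 only, with interactions of -2.89, -0.75, -0.36 and -0.64. TRAF2 moved to the same-direction class without MDA-MB-453 TWEAK replicate 2, and NFKB1 with the replicate block and with the correction for GC content and length. The inhibitors NFKBIE and TNIP1 rose in both lines and further in SKBR3, with interactions of -0.77 and -0.60. In all, 4 of 12 non-canonical and 5 of 21 canonical members were called.

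**Figure D3:**
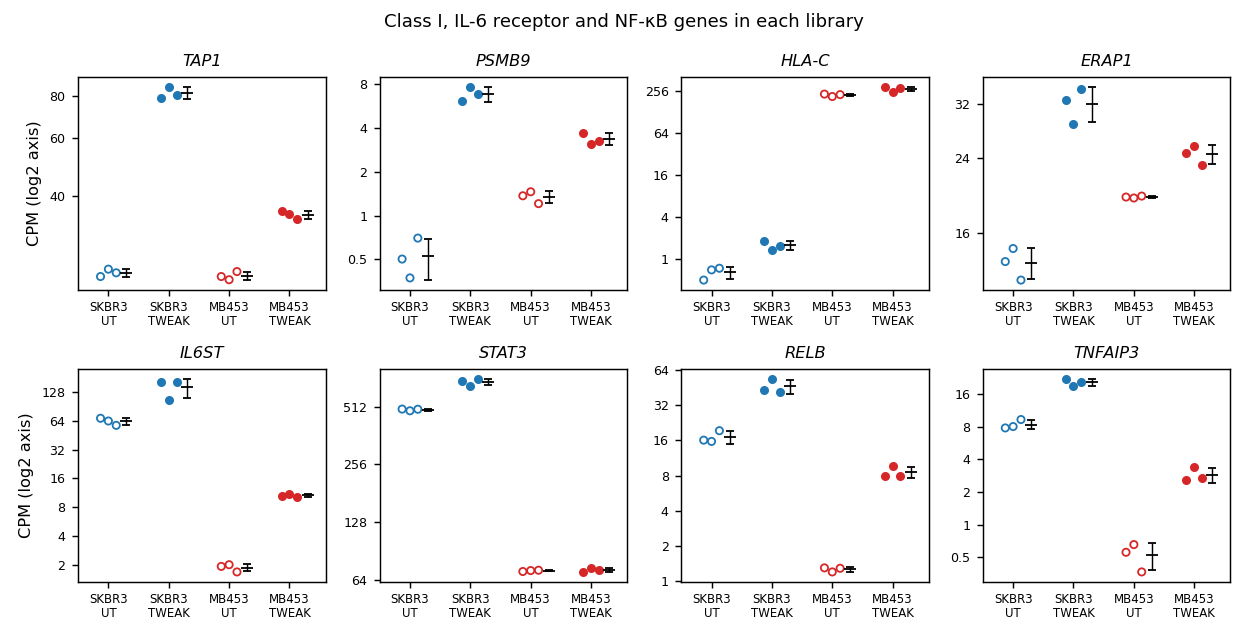
CPM of each library (points; open for untreated, filled for TWEAK) with the mean and SD of 3 replicates (black) on log2 axes that do not start at 0, for genes of class I presentation, the IL-6 pathway and NF-κB in SKBR3 (blue) and MDA-MB-453 (red). TAP1 starts at the same level in both lines and rises further in SKBR3, STAT3 shifts in SKBR3 only, and IL6ST and RELB rise further in MDA-MB-453.

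Other genes that rose in both lines and further in SKBR3 included ICAM1, the endothelial and epithelial ligand of leukocyte integrins, S100A8 and S100A9, which form calprotectin, and IGFBP3, which binds insulin-like growth factors. ICAM1 had 3.92 ± 0.223 CPM untreated and 22 ± 2.18 CPM treated in SKBR3, against 6.68 ± 0.469 and 9.8 ± 0.229 CPM for MDA-MB-453 (interaction -1.93), and opposite-strand genes cover 25.4% of its exonic bases. The interactions were -1.33 for S100A8, -0.82 for S100A9 and -1.49 for IGFBP3. The largest of the class were those of RDH16, a retinol dehydrogenase family gene, with -2.79, and of ANKRD22 with -2.44. All 6 kept this class in all 22 alternatives.

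In the list of interferon-stimulated genes, the MDA-MB-453-only class held most of the called genes. Of 48 tested members 7 were called (14.6%). The MDA-MB-453-only class held 5 of them, including USP18, LGALS3BP, PLSCR1 and EIF2AK2, while DTX3L and PARP14 rose in both lines and further in SKBR3. Over 35 members tested in both lines, 27 passed in MDA-MB-453 and 13 in SKBR3, against 200 and 1228 of all 13489 genes tested in both lines. The median log2 changes of the 35 were close, at 0.44 in MDA-MB-453 and 0.37 in SKBR3. Their median interaction was 0.26, against 0.00 over all genes tested in both lines. Over all 48 tested members the median interaction was 0.08. USP18 (ENSG00000184979; chromosome 22, 18150118 to 18177397), a protease that removes ISG15 from proteins, had 63.7, 62.1 and 61.8 CPM in untreated and 80.2, 70.8 and 77 CPM in treated MDA-MB-453. In SKBR3 it had 16.6, 17 and 15.6 CPM untreated and 14.6, 15 and 14.2 CPM treated. The groups did not overlap in MDA-MB-453, and the lower treated values of SKBR3 did not pass the test of that line, with an adjusted p of 0.255 from edgeR (interaction 0.45, standard error 0.088, adjusted p = 0.00751). LGALS3BP, a secreted glycoprotein, rose from 15 ± 1.61 to 25.1 ± 2.61 CPM in MDA-MB-453, far below the 1240 ± 103 and 1380 ± 103 CPM of SKBR3. The interaction of LGALS3BP was 0.59, and the class of USP18 and LGALS3BP was kept in all 22 alternatives. Those of PLSCR1, which encodes a phospholipid scramblase, and EIF2AK2, which encodes the double-stranded RNA-activated kinase PKR, were 0.54 and 0.39 and lost their calls in 10 and 7 of 21 alternatives.

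Several genes of the list rose in MDA-MB-453 without a called difference. ISG15 had 160, 139 and 147 CPM in untreated and 270, 174 and 232 CPM in treated MDA-MB-453 and lay between 3.81 and 5.85 CPM in SKBR3, with overlapping groups there (interaction 0.40, adjusted p = 0.609). TWEAK replicate 2 was the lowest treated library of MDA-MB-453, and without replicate 2 of both lines the interaction of ISG15 was 0.72 and called (adjusted p = 0.00186). IFIT1 had 109 to 124 CPM in untreated and 154 to 224 CPM in treated MDA-MB-453 and had at most 0.33 CPM in SKBR3, where it could not be tested. Over the alternatives 3 to 12 members of the list had a called higher change in MDA-MB-453, with 12 in the fit without replicate 2 of both TWEAK groups, and 2 to 4 a lower one. DTX3L and PARP14, which encode a ubiquitin ligase and a poly-ADP-ribose polymerase, were low in SKBR3, at 2.25 ± 0.371 and 0.857 ± 0.306 CPM untreated and 7.66 ± 0.54 and 2.8 ± 0.184 CPM treated. MDA-MB-453 had 47.5 ± 0.646 and 116 ± 0.437 CPM untreated and 61.6 ± 2.48 and 157 ± 5.19 CPM treated. The interactions were -1.39 and -1.29, and both held in all alternatives.

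Promoter windows were searched on both strands for GAAA followed after any 2 bases by GAAA, the core of the interferon-stimulated response element. It was found in the windows of 27 of 37 tested members of the list that have a window (73%) and in 3.74% of all windows. All 5 called members with a window (EIF2AK2, PLSCR1, LGALS3BP, DTX3L and PARP14) held it, whichever line responded further, as did 22 of 32 members that were not called. Stretches of 3 of them are shown because the match lies upstream of a RefSeq start; capitals mark the match, and coordinates are of GRCh38.p14, on the minus strand for PLSCR1 and LGALS3BP and on the plus strand for PARP14.
PLSCR1 (chr3:146544653-146544710): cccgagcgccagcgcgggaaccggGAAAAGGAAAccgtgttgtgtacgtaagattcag
LGALS3BP (chr17:78979948-78980005): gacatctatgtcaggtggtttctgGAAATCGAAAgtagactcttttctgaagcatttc
PARP14 (chr3:122680786-122680838): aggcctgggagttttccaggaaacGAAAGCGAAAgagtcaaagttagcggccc

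**Figure D4:**
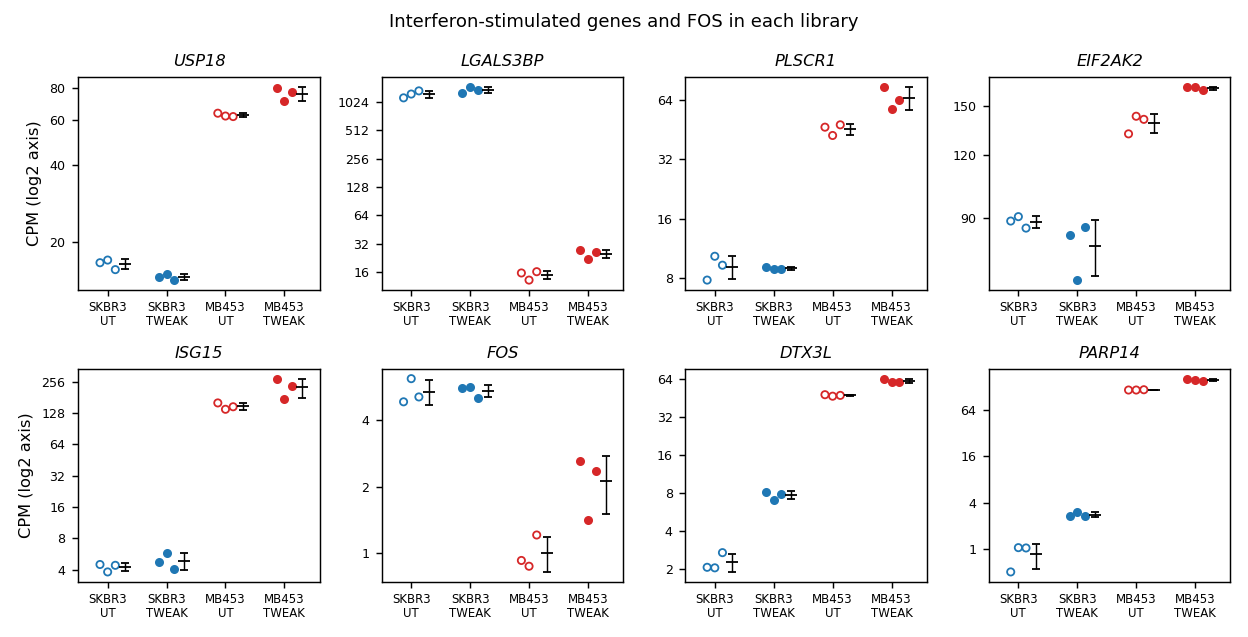
CPM of each library (points; open for untreated, filled for TWEAK) with the mean and SD of 3 replicates (black) on log2 axes that do not start at 0, for 7 interferon-stimulated genes and FOS in SKBR3 (blue) and MDA-MB-453 (red). USP18, LGALS3BP, PLSCR1, EIF2AK2, ISG15 and FOS are higher after TWEAK in MDA-MB-453 with overlapping or lower groups in SKBR3, and DTX3L and PARP14 rise in both lines.

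The rest of the MDA-MB-453-only class was FOS, FN1, HSH2D, FBXO48, MYO9B, UNC93B1, GNE, ALDH3B2 and 1 gene without a symbol. FOS, an AP-1 subunit, had 0.929, 0.875 and 1.21 CPM in untreated and 2.62, 1.42 and 2.35 CPM in treated MDA-MB-453 and 4.82 to 6.13 CPM in all SKBR3 libraries (interaction 1.06, adjusted p = 0.0528). FN1, which encodes fibronectin, rose by 0.79 on the log2 scale in MDA-MB-453 from at most 2.81 CPM and had 179 to 267 CPM in SKBR3. FOS was no longer called in 6 and FN1 in 8 of 21 alternatives, and HSH2D, MYO9B, UNC93B1 and FBXO48 were lost in 9, 12, 8 and 3, mostly on leaving out 1 library. UNC93B1 had opposite directions in 3 of 22, among them that without SKBR3 TWEAK replicate 2. FOS was lost without SKBR3 untreated replicate 2 or without any of MDA-MB-453 untreated replicates 1 and 2 and TWEAK replicates 1 and 3 (adjusted p from 0.138 to 0.186). GNE, the key enzyme of sialic acid synthesis, and ALDH3B2, an aldehyde dehydrogenase, fell by 0.30 and 0.17 in MDA-MB-453, and their interactions of -0.52 and -0.29 held in all alternatives. Their class was less stable, since GNE was in the opposite class in 3 of 22 alternatives, among them that without SKBR3 TWEAK replicate 2. ALDH3B2 passed in neither line in 5, among them those without MDA-MB-453 TWEAK replicate 3 or any of MDA-MB-453 untreated replicates 1, 2 and 3. The class numbered 42 without MDA-MB-453 TWEAK replicate 2, and 5 to 8 without any of MDA-MB-453 TWEAK replicate 3, MDA-MB-453 untreated replicates 1, 2 and 3 and SKBR3 untreated replicate 2.

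The 7 genes with opposite directions were CYP1A1, SECTM1, FAM234B, DDIT4, DPYSL2, LDLRAD3 and C1orf115. CYP1A1 (ENSG00000140465; chromosome 15, 74719542 to 74725536), a cytochrome P450 and the best-known target of the aryl hydrocarbon receptor (AHR), had the largest difference. It had 5.32, 5.96 and 7.88 CPM in untreated and 1.25, 1.64 and 1.92 CPM in treated SKBR3, and 2.19, 3.87 and 2.79 CPM in untreated and 5.35, 5.49 and 4.96 CPM in treated MDA-MB-453. The replicates were apart in both lines (interaction 2.81, standard error 0.277, adjusted p = 1.01e-05). Of other AHR targets, CYP1B1 and TIPARP had interactions of -0.24 and 0.28, which were not called (adjusted p = 0.514 and 0.274), although both were called without replicate 2 of both TWEAK groups, with values of -0.37 and 0.27. CYP1A2, the neighbour of CYP1A1, was below 1 CPM in all libraries and had a called interaction of 1.84 in the same direction as CYP1A1 (adjusted p = 0.0449) whose call was lost in 7 of 20 alternatives. SECTM1, which encodes a secreted and transmembrane ligand of the immune receptor CD7, fell from 32 ± 2.73 to 15.1 ± 1.28 CPM in SKBR3, whereas it rose from 48.4 ± 1.4 to 55.1 ± 0.842 CPM in MDA-MB-453 (interaction 1.27). FAM234B had the same directions with an interaction of 0.57.

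The other opposite genes rose in SKBR3 and fell in MDA-MB-453. DDIT4, which encodes the stress-induced mTORC1 inhibitor REDD1, went from 237, 243 and 266 to 322, 352 and 307 CPM in SKBR3, while MDA-MB-453 had 188, 200 and 196 CPM untreated and 165, 157 and 168 CPM treated (interaction -0.65, standard error 0.082, adjusted p = 0.000156). DPYSL2, a microtubule-binding protein gene, rose by 1.10 in SKBR3 and fell by 0.20 in MDA-MB-453, LDLRAD3 rose by 0.72 and fell by 0.17, and C1orf115 rose by 0.22 and fell by 0.17. All 7 interactions were called in all alternatives, but the change within a line was often near its threshold. DDIT4 remained opposite in all 22 alternatives and CYP1A1 in 21, failing without MDA-MB-453 untreated replicate 3, while the others remained so in 7 to 15. The class held 1 to 4 genes without any of MDA-MB-453 untreated replicates 1, 2 and 3 and TWEAK replicates 1 and 3, and 35 without MDA-MB-453 TWEAK replicate 2.

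**Figure D5:**
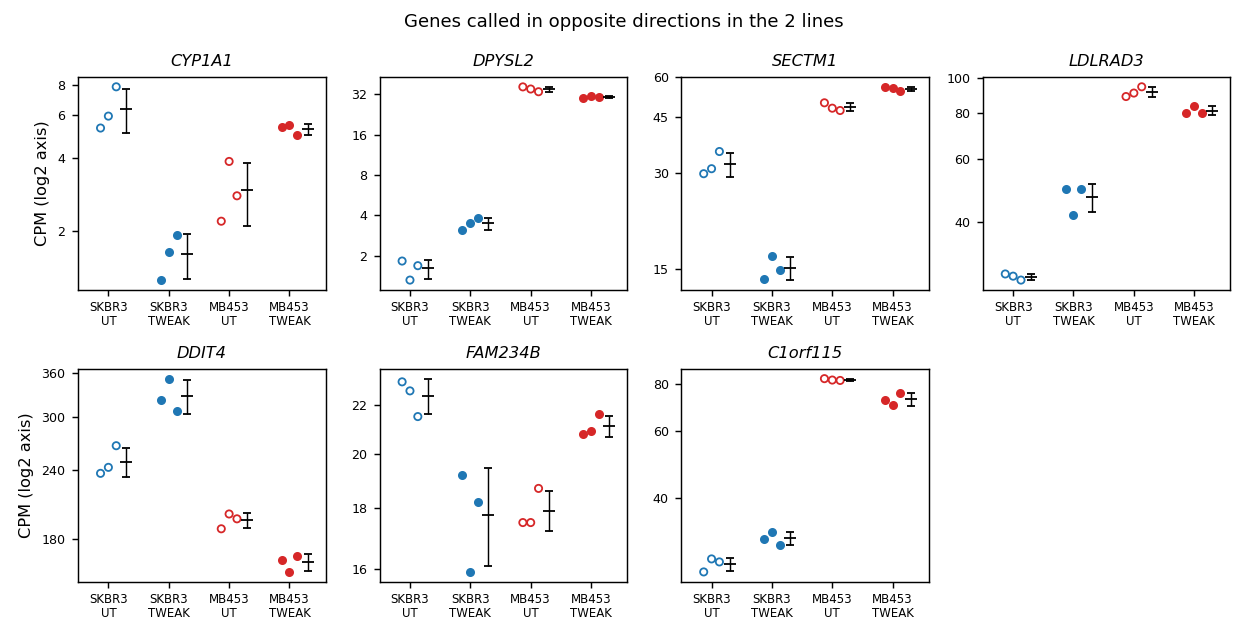
CPM of each library (points; open for untreated, filled for TWEAK) with the mean and SD of 3 replicates (black) on log2 axes that do not start at 0, for the 7 genes called in opposite directions in SKBR3 (blue) and MDA-MB-453 (red). CYP1A1 falls in SKBR3 and rises in MDA-MB-453, and DDIT4 does the reverse.

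Some functions gave no called difference. None of 52 cytosolic ribosomal protein genes, 15 mitochondrially encoded genes, 8 luminal HER2 markers and 12 genes of secreted defence and the acute phase was called, although all 52 ribosomal genes had an interaction of at most 0 with a median of -0.09. With 3.37% called over all genes, the lists of 8, 12 and 15 are too short for this to set them apart. Of the 12 genes of secreted defence, only 3 could be tested in both lines, and the median interaction of the 12 was -0.59. Without replicate 2 of both TWEAK groups, the median of the ribosomal genes was 0.11 and 4 of them were called with a higher change in MDA-MB-453, and 6 mitochondrially encoded genes were called with a lower change and 1 with a higher one. Without MDA-MB-453 TWEAK replicate 2 alone, 2 mitochondrially encoded genes were called. Over the alternatives at most 1 luminal marker and at most 1 gene of secreted defence in each direction was called. In the list of NAD metabolism 1 of 20 was called, the mitochondrial transhydrogenase NNT, which fell by 0.41 in SKBR3 only. NAMPT, the rate-limiting enzyme of NAD salvage, had an interaction of 0.02 (standard error 0.095, adjusted p = 0.994). ERBB2, which encodes HER2, had one of -0.07 (adjusted p = 0.763), at 7410 to 7910 CPM in SKBR3 and 847 to 902 CPM in MDA-MB-453. TNFRSF12A, the receptor of TWEAK, had 60.9 to 72.4 CPM in untreated SKBR3 and 51.2 to 52.8 CPM in untreated MDA-MB-453, a difference that was not tested. On the log2 scale TNFRSF12A changed by 0.36 in SKBR3, and a change of 0.17 in MDA-MB-453 did not pass (interaction -0.20, standard error 0.105, adjusted p = 0.532).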

How the data were processed

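The authors trimmed reads with Trimmomatic, mapped them to hg38 with STAR and counted them per gene with featureCounts; the deposited values are raw counts, not normalised. Versions, annotation and strand setting are not given in the sources used here, and the paper names a directional RNA kit where the labels name a DNA kit, so reads of genes that overlap on opposite strands may be mixed. Both tables were joined on gene identifier; 61918 of 62696 identifiers matched GENCODE release 44 with their version and 707 without it.

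edgeR 4.0.16 in R 4.3.3 was used with filterByExpr by group, TMM scaling, quasi-likelihood tests, two-sided, and Benjamini-Hochberg adjustment over all genes tested. CPM are counts scaled by TMM library size over all 12 libraries. Log2 changes use edgeR's default prior count. Calls within a line come from that line's 6 libraries. The 95% intervals of log2 changes come from the same fits. The scripts were tested on simulated counts. The study's methods call the samples biological replicates, and p-values measure the spread between these replicates only. The authors' methods used DESeq2 with an FDR of 0.1, which set the threshold; DESeq2 1.42.0 and limma 3.58.1 are alternatives, together with other filters, a replicate block, a threshold of 0.05, left-out libraries and a correction for GC content and transcript length.

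The 40 gene lists and all members were chosen with earlier results of these data known. Named genes were fixed genes (TNFRSF12A, NFKB2, RELB, BIRC3, NAMPT, ERBB2), up to 4 called members per list by adjusted p, and the largest interactions per class (6 per direction for genes with a mean of 1 CPM or more over all libraries of each line and with replicates that do not overlap in the responding line, 3 where the other line was too low, up to 12 opposite and 4 in each group of same direction). EIF2AK2, UNC93B1, HSH2D, MYO9B, FBXO48, HLA-B, HLA-C, B2M, PSMB8, TAPBPL, TAP2, NLRC5, SOCS1, JAK1, TYK2, IL6R, SOCS3, PIM1, JAK2, ITGAV, ITGAM, LAMB3, SDC2, CYP1B1, TIPARP, ISG15, IFIT1, OAS3, HERC6 and UBE2L6 were named after their values were seen. Some genes are not reported here.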

Additional observations from a re-analysis of the deposited data

Results flagged for a closer look

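Each called gene passed the interaction test at an adjusted p of at most 0.1, a threshold at which some calls are expected to be false. The counts were 579 genes in all, 459 called in SKBR3 only, 14 called in MDA-MB-453 only and 7 with opposite directions. The 7 opposite genes are listed because they passed the threshold of each line in opposite directions. DDIT4 kept this class in all 22 alternatives and CYP1A1 in 21, but the others did so in only 7 to 15. The interactions of the 7 on the log2 scale were 2.81 for CYP1A1, 1.27 for SECTM1 and 0.57 for FAM234B, which fell in SKBR3 and rose in MDA-MB-453. They were -1.30 for DPYSL2, -0.90 for LDLRAD3, -0.65 for DDIT4 and -0.40 for C1orf115, which rose in SKBR3 and fell in MDA-MB-453.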

How the results depend on the processing

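Of 133 named genes with a called interaction, 86 kept the call in all alternatives in which they were tested, 16 lost it in 1 to 3 and 31 in 4 or more, and none changed direction. Most losses, 247 of 311, came from fits that left out 1 library. Leaving out each library in turn gave 394 to 1150 called genes, 303 to 941 in SKBR3 only, 5 to 42 in MDA-MB-453 only and 1 to 35 with opposite directions. Without TWEAK replicate 2 of both lines these counts were 2077, 995, 528 and 159, with 1113 lower and 964 higher changes in MDA-MB-453, a more even split than the 406 and 173 of all 12 libraries. With a correction for GC content and transcript length, which was chosen after seeing the data, they were 1130, 905, 29 and 18. The cause was not tested. The paper states that cell line experiments were repeated on different days, so a replicate number may stand for a day. The correlation of same-numbered deviations was -0.111 to 0.0812 in SKBR3 and 0.00122 to 0.0507 in MDA-MB-453. Between the TWEAK groups of the lines it was -0.187 to -0.0096. With the replicate number as a block, 422 genes were called, 292 in SKBR3 only, 21 in MDA-MB-453 only and 13 with opposite directions. DESeq2 gave 721 genes with 3 opposite, and calls within lines from the fit of 12 libraries also gave 3 opposite. Without a filter 33 genes responded in MDA-MB-453 only. At an adjusted p of 0.05, 401 genes were called, with 7 in MDA-MB-453 only and 2 opposite. Requiring the 95% interval of the other line to lie within 1.2-fold of no change left 305 genes in SKBR3 only and 3 in MDA-MB-453 only. ISG15, CYP1B1 and TIPARP gained a call in 1 or 2 alternatives. Genes with few counts in 1 line, such as HYAL4 and COL27A1, have the least certain sizes.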
